A study of Arabidopsis thaliana with 6 samples.

Results

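Transcript levels of an atvap mutant were compared with those of the wild type in whole Arabidopsis thaliana seedlings. The comparison takes the 2 arrays labelled wild type and the 2 labelled atvap mutant, chosen by those labels alone, of 6 arrays in the series. It covers the 22746 probe sets that are not Affymetrix controls. All plants were 5 days old, came from sterilised seed on OS medium under 16 h of light and 8 h of dark, and had no treatment. The third genotype, TaVAPOE, is the wild type overexpressing TaVAP, and its 2 arrays show here how far replicate arrays differ and where another genotype lies. The labels do not give the mutated locus, the kind of mutation, the Arabidopsis accession, whether the mutant is 1 line, or how many seedlings made up a sample, so the targeted gene could not be checked on the arrays. They call the replicates biological, but they do not say whether these came from separate sowings, so a p-value measures only the spread between these samples.

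VAP proteins, called VAP27 in plants, are anchored in the membrane of the endoplasmic reticulum (ER) and bind partners on other membranes. Plant VAP27 proteins work at contacts between the ER and the plasma membrane, where they meet actin-binding NET proteins and microtubules, and they have been tied to endocytosis and autophagy. The genes are therefore described in the order of membrane traffic, cytoskeleton and cell wall, then plastids and mitochondria, then defence, regulation and metabolism. Differences are mutant minus wild type, in log units of the deposited scale, whose base is not stated.

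The 4 arrays were of unequal quality, and each result is given for all of them and for replicate 2 alone. Over all probe sets the replicate 2 arrays of wild type and mutant correlated at Pearson r = 0.957, the replicate 1 arrays at 0.072, the wild-type pair at 0.521 and the mutant pair at 0.190. These correlations run across probe sets, which are not independent replicates. The plant control probe sets near the 3' ends averaged 6.09 and 7.54 on wild-type replicates 1 and 2 and 3.50 and 7.65 on the mutant ones, and replicate 1 of both groups was dim in this sense. Replicate 2 was not fully matched either, since the controls near the 5' ends averaged 5.37 for wild type and 5.98 for the mutant, against 6.20 and 6.24 for TaVAPOE; the part of this in the replicate 2 differences was not tested. Of the cell type markers listed, 6 had a probe set naming 1 gene: 2 of 16 for green tissue, 2 of 18 for root, 1 of 6 for shoot meristem and 1 of 15 for flower and anther. LHCB4.1 and RCA, which mark green tissue, averaged 9.25 on wild-type replicate 2, 9.29 on its mutant counterpart, and 9.06 and 3.34 on the replicate 1 arrays of wild type and mutant. The root marker EXPA7 read 1.76 and 3.12 on wild-type replicates 1 and 2 and 3.79 and 2.29 on the mutant ones, and CLV3 of the shoot meristem read 2.15 and 2.90 against 3.01 and 2.23, so both were higher in the mutant on replicate 1 and lower on replicate 2. The root marker EXPA18 read 2.51 and 2.30 against 2.59 and 2.44. In whole seedlings, fewer cells of a type and less RNA per cell cannot be told apart.

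**Figure D1:**
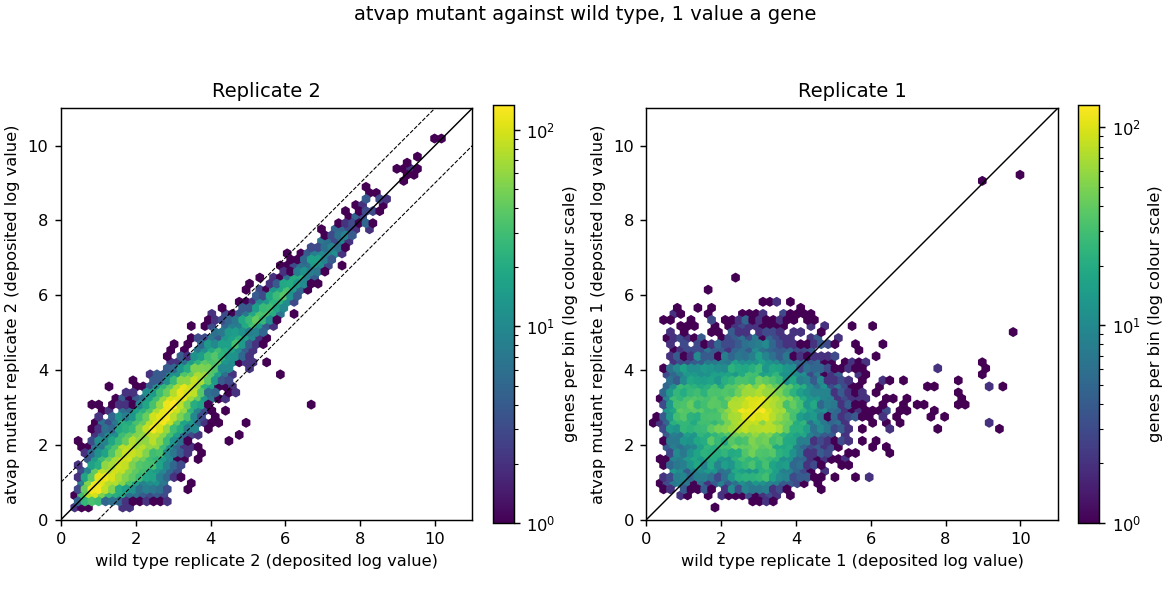
Deposited log value of each of 13286 genes on the mutant array (vertical axis) against the wild-type array (horizontal axis), for replicate 2 (left) and replicate 1 (right); colour is the number of genes in a bin, the solid line marks equal values and the dashed lines 1 log unit. The replicate 2 arrays follow the diagonal, and the replicate 1 arrays form a cloud without one.

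No probe set passed an adjusted p of 0.05 between mutant and wild type over the 4 arrays (limma, 0% of 22746), and 218 had an unadjusted p under 0.05, which is 0.958%. The standard errors (SE) and p-values over 4 arrays come from a fit to all 6 arrays, which assumes 1 spread for all groups. The median absolute difference between replicates was 0.962 for wild type, 0.999 for the mutant and 0.191 for TaVAPOE. Pooling with the TaVAPOE pair therefore tends to make these SEs and p-values smaller. With the 2 groups alone 25 probe sets had an unadjusted p under 0.05 (limma), and with array quality weights 21. The test of replicate 2 against replicate 2, in which each single array is assumed to vary as the TaVAPOE pair does, also called 0 probe sets, with 2951 at an unadjusted p under 0.05 (13%) and a smallest adjusted p of 0.219. That call of 0 did not hold under 3 of the 7 other settings. With the probe sets below the 40th percentile left out it was 4, with each array centred on its median it was 4, and with an intensity trend and robust moderation it was 8, all lower in the mutant. The 4 probe sets of the first setting were those of AT1G66850 and 3 without a gene name here, described further on. In size, 442 probe sets (1.94%) were at least 1 log unit higher in the mutant on replicate 2 and 671 (2.95%) at least 1 log unit lower. Between the 2 TaVAPOE arrays 339 probe sets (1.49%) were that far apart. The higher ones were thus 39.7% of the 1113, a share that became 67.4% without the probe sets below the 40th percentile and 53.5% with all values raised to the 20th percentile. Adding 16 on the linear scale, which takes the scale as base 2, left 1 higher and 9 lower. On replicate 1, 9459 probe sets (41.6%) were at least 1 log unit apart.

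A gene was represented by its brightest probe set, which gave 13286 genes. On replicate 2, 222 of them (1.67%) were at least 1 log unit higher in the mutant and 432 (3.25%) at least 1 lower, and 48.7% were higher by any amount. The median difference over all genes was -0.0092. The balance moved with brightness. Genes were divided into 4 classes of equal size by mean level. In the dimmest class the median difference was -0.15, with 27 genes at least 1 log unit higher and 185 lower. In the brightest class it was 0.13, with 43 higher and 10 lower, while the TaVAPOE arrays were that far apart in 54 genes of the dimmest class and in 3 of the brightest. Genes whose brighter replicate 2 array lay above 2.80, the median of all values, are called bright below. Of these 6465 genes, 60.3% were higher by any amount, 128 (1.98%) were at least 1 log unit higher and 144 (2.23%) at least 1 lower, against 38 (0.588%) between the TaVAPOE arrays. On the 5 nuclear chromosomes, 1.67% to 2.69% of the bright genes of a chromosome were that much higher and 1.83% to 2.52% lower. In the plastid genome it was 3 of 59 (5.08%) and 2 of 59 (3.39%). Among bright genes that neighbour each other in the TAIR10.1 gene order, with at most 2 genes between them, 1 pair was at least 1 log unit apart in the same direction. The pair was AT1G08710 and the myosin gene XIC, at -1.28 and -1.36.

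**Figure D2:**
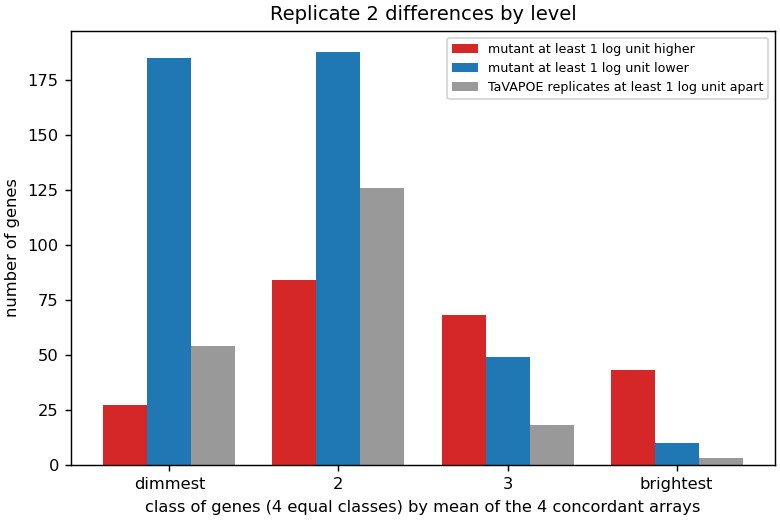
Number of genes (vertical axis) at least 1 log unit apart on replicate 2, by class of the genes' mean level (4 classes of equal size) over wild-type replicate 2, mutant replicate 2 and both TaVAPOE arrays (horizontal axis). Red and blue bars give genes higher and lower in the mutant and grey bars those apart between the TaVAPOE replicates; lower genes outnumber higher ones 185 to 27 in the dimmest class and trail them 10 to 43 in the brightest.

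With no call, the genes below are described by their values. Of the 13286 genes, 4 had an unadjusted p under 0.01 over 4 arrays (limma), groups that did not overlap and a higher group mean above the median. They were picked by these values, and none passed the adjusted test. LBD29 encodes a LOB-domain transcription factor that acts in lateral root formation downstream of auxin. It read 3.13 and 2.82 in wild-type replicates 1 and 2, 1.38 and 1.07 for the mutant, and 1.11 and 1.07 for TaVAPOE. Both mutant arrays were thus below both wild-type arrays, and the TaVAPOE arrays lay with the mutant. The difference was -1.75 ± 0.45 (SE of the limma fit, 2 arrays a group, unadjusted p = 0.0086, adjusted p = 0.9999), and -1.75 on replicate 2. Since both mutant values were under 1.66, the 20th percentile of all values, raising values to that level gave -1.31 and -1.16.

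AT1G68875 read 6.37 and 4.51 for wild type and 2.94 and 2.02 for the mutant, with TaVAPOE between them at 3.27 and 3.57. Its difference of -2.96 ± 0.75 over 4 arrays (limma, unadjusted p = 0.0080) was -2.48 on replicate 2. Mutant replicate 1, the dimmest array, had a median of 2.88 over all probe sets, and its reading for AT1G68875 lay near that. AT4G15860 read 3.08 and 2.51 for wild type, 1.09 and 0.90 for the mutant, and 1.13 and 0.91 for TaVAPOE. The mutant and TaVAPOE arrays of this gene were all at the dim end of the scale. In the other direction, AT5G57720 read 0.80 and 1.04 for wild type and 3.59 and 2.92 for the mutant, a difference of 2.33 ± 0.52 (limma, unadjusted p = 0.0046) over 4 arrays. Its wild-type values were both under the 20th percentile, and with values raised to it the difference was 1.60 over 4 arrays and 1.26 on replicate 2. With each array left out in turn, these 4 differences lay between -3.89 and -2.03, -2.09 and -1.52, and 1.998 and 2.67 for the 3 loci. For LBD29 they lay between -1.91 and -1.59. Groups without overlap were required, so leaving out 1 array could not turn the sign, here or for the genes below chosen in that way. Such ranges show only how the size moved. The gene table gives these 3 loci no symbol, and no role is stated for genes known here by locus alone.

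At least 1 log unit apart on replicate 2 and in the mean of 4 arrays, with groups that did not overlap, were 20 bright genes higher in the mutant (0.309%) and 18 lower (0.278%). Groups without overlap alone were common, at 11.8% of bright genes for higher and 6.56% for lower. Among the higher genes was SKU5, a GPI-anchored protein of the multicopper oxidase family that takes part in directed root growth. SKU5 read 3.22 and 4.04 for wild type, 4.25 and 5.57 for the mutant, and 5.98 and 5.81 for TaVAPOE. Mutant replicate 1 exceeded wild-type replicate 2 by little, so the lack of overlap is narrow. The difference was 1.28 ± 0.63 over 4 arrays (limma, unadjusted p = 0.090), from 0.62 to 1.94 with each array left out in turn, and 1.53 on replicate 2.

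OTP86, a pentatricopeptide repeat protein needed for editing of a plastid transcript, read 2.42 and 1.48 for wild type and 3.02 and 3.30 for the mutant. TaVAPOE read 1.07 and 1.32, below every other array, and the mutant arrays were the highest of the 6. Its difference was 1.22 ± 0.52 over 4 arrays (limma, unadjusted p = 0.061), from 0.74 to 1.69 with 1 array left out, and 1.83 on replicate 2. The other 10 higher genes named by this rule are known by locus only, among them AT5G57720, AT1G21350 and AT1G77500. AT1G21350 read 2.91 and 1.99 against 3.98 and 3.77, and AT1G77500 read 2.12 and 1.74 against 3.40 and 3.35. For both genes the TaVAPOE arrays lay near the mutant, at 3.52 and 3.86 and at 3.44 and 3.45.

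On the lower side stood ATA27, also called BGLU20, a beta-glucosidase gene known from anthers and the only listed flower and anther marker measured. It read 2.52 and 3.42 for wild type, 1.96 and 0.90 for the mutant, and 2.78 and 3.26 for TaVAPOE. The mutant arrays were lowest and the TaVAPOE arrays lay with the wild type. The difference was -1.54 ± 0.61 (limma, unadjusted p = 0.046) over 4 arrays, from -2.07 to -1.01 with 1 array left out, and -2.52 on replicate 2. Mutant replicate 2 was under the 20th percentile of all values. With values raised to that level the difference was -1.16 over 4 arrays and -1.76 on replicate 2. PDF1.2, the jasmonate- and ethylene-induced plant defensin, read 3.07 and 3.40 against 1.79 and 1.86, with TaVAPOE at 1.70 and 1.99. Its difference was -1.41 ± 0.45 (limma, unadjusted p = 0.021) over 4 arrays and -1.54 on replicate 2.

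AT1G66850 had the lowest replicate 2 difference of any bright gene. This locus read 4.32 and 6.75 for wild type, 3.03 and 3.07 for the mutant, and 5.66 and 5.69 for TaVAPOE. The 2 mutant arrays nearly coincided and were below the other 4. The difference was -3.68 on replicate 2 and -2.48 ± 0.83 over 4 arrays (limma, unadjusted p = 0.025), and leaving out each array in turn moved the latter from -3.70 to -1.27. Its adjusted p in the replicate 2 test was 0.219, and it was 0.0077 with the dim probe sets left out, 0.040 with median centring and 6.3e-04 with the trend and robust moderation.

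**Figure D3:**
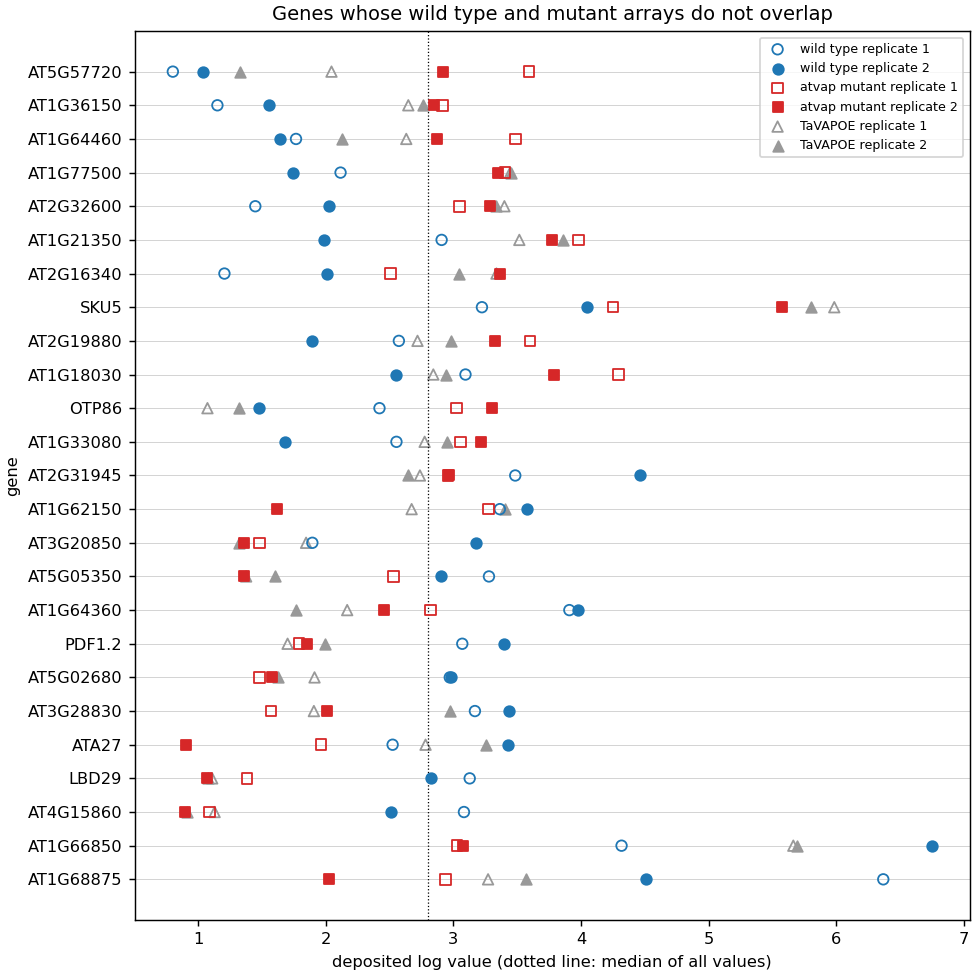
Deposited log value (horizontal axis) on every array for the 25 genes named for groups that do not overlap (vertical axis, ordered by the 4-array difference): blue circles wild type, red squares atvap mutant, grey triangles TaVAPOE, open for replicate 1 and filled for replicate 2. The 12 genes at the top are higher on both mutant arrays and the 13 at the bottom lower; the TaVAPOE triangles lie with the mutant in genes such as LBD29 and with the wild type in AT1G66850.

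The 3 other probe sets with replicate 2 differences that large have no single gene in the annotation used, and they were picked after their values were seen. Probe set 258392_at read 4.30 and 6.48 for wild type, 2.80 and 2.43 for the mutant, and 5.24 and 5.19 for TaVAPOE. Probe set 247717_at read 4.28 and 5.95 for wild type, 2.88 and 1.97 for the mutant, and 5.63 and 5.79 for TaVAPOE. In both, the mutant arrays lay below the other 4, and the differences were -4.05 and -3.98 on replicate 2 and -2.77 ± 0.78 and -2.69 ± 0.70 over 4 arrays (limma, unadjusted p = 0.012 and 0.0092). Mutant replicate 1 again read near its array median of 2.88 in both, so it adds little here. The third, 250610_at, read 5.61 in wild-type replicate 2 and 1.18 in mutant replicate 2, but 3.41 and 4.96 in replicate 1. Its direction was opposite in the 2 replicates, and TaVAPOE read 4.14 and 4.34.

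Among the 15 bright genes with the largest replicate 2 differences in each direction, the values ran from 1.60 to 2.26 for higher and from -3.68 to -1.96 for lower. Of the higher ones, AT5G10290 read 3.66 and 1.25 for wild type and 3.45 and 3.51 for the mutant, so its difference of 2.26 came with a low value on wild-type replicate 2 alone. AT4G01860 read 2.90 and 0.92 against 2.57 and 3.13, the same arrangement. DIM1B, an rRNA dimethylase, read 3.12 and 1.78 against 2.74 and 3.41, a difference of 1.62 on replicate 2 and 0.62 ± 0.64 over 4 arrays. AT1G66430 read 3.43 and 3.44 against 2.67 and 5.14, with both TaVAPOE arrays, at 5.00 and 5.22, near mutant replicate 2.

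Of the lower ones, PDF1.2b, a close copy of PDF1.2, read 2.15 and 4.90 for wild type and 2.61 and 2.64 for the mutant. Wild-type replicate 2 was the only high array, and its probe set belongs to a class that can match several transcripts, so the copies may share signal. AT2G20870 read 3.59 and 5.89 for wild type, 2.49 and 3.85 for the mutant, and 5.57 and 5.62 for TaVAPOE. The mutant was lower than the wild type within each replicate, although the groups overlapped, and the differences were -2.05 on replicate 2 and -1.58 ± 0.89 over 4 arrays. RXF26 went opposite ways in the 2 replicates, reading 1.51 and 3.45 against 3.54 and 0.81.

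Replicate 1 went the way of replicate 2 in 57 of the 128 higher bright genes and in 39 of the 144 lower ones. The shares of all bright genes higher and lower on replicate 1 were not counted, so these counts have no base to be read against. The median replicate 1 difference of all bright genes was -0.047. For the 128 and 144 genes, the mean of 4 arrays had the direction of replicate 2 in 106 and 108 and was at least 1 log unit in 26 and 24. The groups did not overlap in 39 (30.5%) and 28 (19.4%), beside 11.8% and 6.56% of all bright genes. These genes were chosen by the replicate 2 difference, which is part of both measures, so higher shares follow from the choice. Set beside TaVAPOE, both arrays of that line were nearer to the mutant than to the wild type in 85 of the 128 higher genes and in 87 of the 144 lower ones. Both were nearer to the wild type in 27 and 37. The share over all bright genes was not counted, and these genes were chosen by the difference between the 2 arrays compared. Over all probe sets, TaVAPOE replicates 1 and 2 correlated at 0.954 and 0.951 with mutant replicate 2. With wild-type replicate 2 they correlated at 0.939 and 0.935. Within 0.5 log units of mutant replicate 2 were both TaVAPOE arrays in 72 and 65 genes, and within 0.5 of wild-type replicate 2 in 18 and 16. Of the 7040 genes with at least 1 of these 4 arrays above the median, mutant replicate 2 stood at least 1 log unit above the 3 others in 10 and below them in 33. Wild-type replicate 2, the array with the lowest 5' controls of the 4, stood above the 3 others in 55 and below them in 63.

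**Figure D4:**
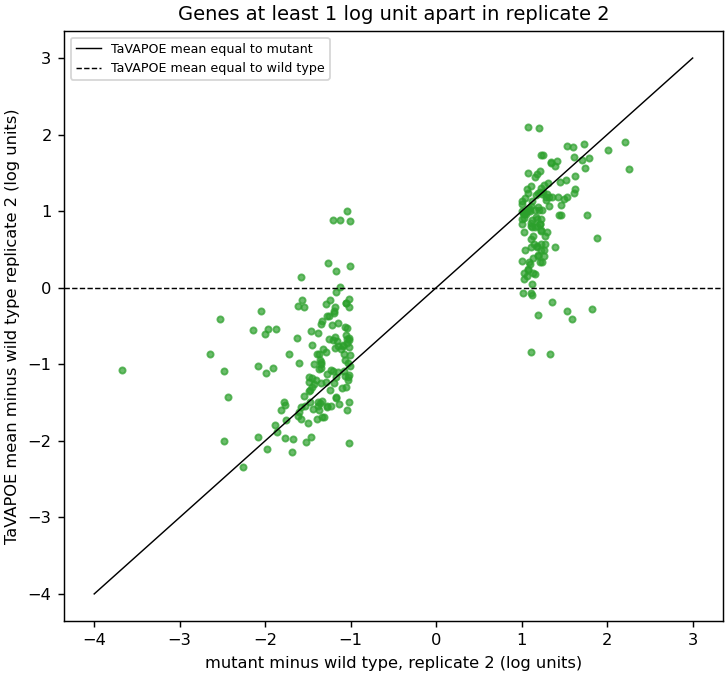
Mean of the 2 TaVAPOE arrays minus wild-type replicate 2 (vertical axis) against mutant minus wild type on replicate 2 (horizontal axis), both in log units, for the 128 higher and 144 lower bright genes. Points on the solid line have TaVAPOE at the level of the mutant and points on the dashed line at that of the wild type; both arrays were nearer to the mutant in 85 and 87 genes. Both axes subtract the same wild-type array, so the slope is no evidence of a relation.

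The 10 genes in which mutant replicate 2 was above the 3 other arrays included OTP86, AT1G47400, AT1G35350 and psbK. AT1G47400 read 2.72 and 2.88 for wild type, 3.08 and 4.47 for the mutant, and 2.45 and 2.49 for TaVAPOE. Both mutant arrays exceeded the other 4, with differences of 1.59 on replicate 2 and 0.97 ± 0.59 over 4 arrays. AT1G35350 read 3.70 and 4.39 against 2.72 and 5.72, so only replicate 2 was high. Besides AT1G66850, ATA27, AT1G68875 and AT2G20870, the 33 genes in which it was below them included CCMH, bZIP44 and GH9B13. CCMH, needed for cytochrome c maturation in mitochondria, read 1.03 and 3.24 against 2.71 and 1.37, and its replicates were opposed. AT5G22430 read 2.56 and 4.14 for wild type, 1.32 and 2.57 for the mutant, and 3.92 and 4.04 for TaVAPOE. Within each replicate this gene was lower in the mutant, with differences of -1.57 on replicate 2 and -1.40 ± 0.73 over 4 arrays. These genes were picked from the 43 after their values were seen.

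Genes were also read by family, in 47 lists of 8 or more genes with 967 distinct genes. On replicate 2, 12 of these genes (1.24%) were at least 1 log unit higher and 34 (3.52%) at least 1 lower, beside 1.67% and 3.25% of all genes. In 15 lists no member was that far apart, in 29 lists 1 or 2 were, and in 3 lists 3 or more. List medians ran from -0.30 to 0.39 on replicate 2 and from -0.83 to 0.43 over 4 arrays, beside -0.0092 and 0.0094 for all genes. The median had the same sign in both replicates in 15 of the 47 lists. The replicate 2 medians also depended on the setting. Under quantile normalization 11 of 47 turned to the opposite sign, and without the probe sets below the 40th percentile 8 of 39 did. With values raised to the 20th percentile 18 of 47 became 0. No gene of a list passed the adjusted test.

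Of the membrane traffic lists, 3 had positive medians on replicate 2 that were smaller or negative over 4 arrays. In the list of exocyst, SNARE, SM and tethering proteins, which dock and fuse vesicles, 18 of 24 genes were higher by any amount, with a median of 0.30 on replicate 2 and 0.11 over 4 arrays. The replicate 2 median was 0.15 under quantile normalization and 0.10 with 16 added on the linear scale. None was 1 log unit apart. Of the 19 bright members 15 were higher by any amount, beside 60.3% of all bright genes. ATZW10, a homologue of the animal tethering protein ZW10, read 3.09 and 2.35 for wild type and 2.56 and 3.32 for the mutant. EXO84B, an exocyst subunit, read 3.28 and 3.11 against 2.76 and 3.76, and both genes were higher on replicate 2 only. PRA1 proteins, small membrane proteins that bind Rab GTPases, had 9 of 11 higher and medians of 0.29 and -0.16. Their replicate 2 median was 0.21 under quantile normalization and 0.096 with 16 added. Of the 9 bright PRA1 genes 8 were higher, beside the same 60.3%. PRA1.B4 read 3.81 and 3.92 against 2.65 and 4.76.

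ESCRT and other vacuolar sorting proteins had 9 of 13 higher and medians of 0.18 and -0.27. Their bright members had 8 of 10 higher, beside 60.3% of all bright genes. VPS60.2, of the ESCRT machinery that sorts membrane proteins for breakdown, was the 1 member at least 1 log unit apart, reading 3.19 and 2.62 against 1.72 and 3.74. Its replicates went opposite ways. Of the 10 NET genes, the actin-binding proteins among which VAP27 partners are found, 4 were higher, 1 was at least 1 log unit lower, and the medians were -0.055 and 0.18. Only 2 of the 10 were bright, with a median of 0.47 on replicate 2. Over the list, that median was 0 with values raised to the 20th percentile and 0.041 under quantile normalization. NET4B read 2.38 and 4.31 against 3.04 and 4.97, higher by 0.66 within each replicate. Autophagy proteins had 5 of 11 higher, none 1 log unit apart, and medians of -0.0098 and -0.13. ATG8B, a ubiquitin-like protein of the autophagosome membrane, read 2.35 and 3.29 against 2.41 and 2.49.

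ER folding and quality control genes had 12 of 14 members higher on replicate 2, none of them by 1 log unit. Their median was 0.32 there and -0.075 over 4 arrays, and the replicate 2 value was 0.15 under quantile normalization and 0.17 with 16 added. All 14 were bright genes, of which 60.3% were higher by any amount. CRT1b, an ER chaperone of the calreticulin family, read 4.03 and 6.18 against 3.995 and 6.52. DER2.2, a Derlin of the pathway that clears misfolded ER proteins, read 3.20 and 2.99 against 2.35 and 3.61. The 16 other chaperones had 6 higher, 2 at least 1 log unit lower and medians of -0.21 and -0.47. On replicate 2 the median was -0.066 for the 12 bright members, 6 of them higher, and -0.0058 with values raised to the 20th percentile. Tetraspanins, membrane proteins that organise plasma membrane domains, had 7 of 15 higher and medians of -0.0065 and 0.18.

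Tubulins, actins, myosins and kinesins had 12 of 21 higher, a median of 0.067 on replicate 2 and 0.030 over 4 arrays, and 1 member at least 1 log unit lower. That member was XIC, a class XI myosin, which read 3.25 and 3.21 for wild type and 2.78 and 1.85 for the mutant. Both mutant arrays were below both wild-type arrays. BRK1, a subunit of the SCAR/WAVE complex that starts actin branching, read 2.71 and 2.89 against 1.75 and 2.37, again without overlap. TUA6, an alpha tubulin, read 5.23 and 7.44 against 3.28 and 7.51. TRM proteins, which are tied to microtubules, had 9 of 15 higher and medians of 0.15 and 0.43.

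Among cell wall lists, cellulose synthase-like and other wall-building genes had 13 of 17 higher, with medians of 0.31 on replicate 2 and -0.094 over 4 arrays. The replicate 2 median was 0.21 under quantile normalization and 0.067 with 16 added on the linear scale. Of the 11 bright members 10 were higher by any amount, beside 60.3% of all bright genes. SKU5 was the 1 member at least 1 log unit apart. GAUT15, a galacturonosyltransferase-like gene of pectin synthesis, read 2.66 and 4.17 for wild type and 3.82 and 5.08 for the mutant. COB, the COBRA protein that orients cellulose deposition, read 3.38 and 5.86 against 4.12 and 6.22. Both genes were higher in the mutant within each replicate, while the groups overlapped. Glycosyl hydrolases of family 9 had 8 of 15 higher and medians of 0.015 and 0.092. GH9B13, an endoglucanase-like member, read 3.48 and 5.10 against 2.74 and 3.98, with TaVAPOE at 6.15 and 5.83, so it was lower in the mutant within each replicate, with a difference of -1.12 on replicate 2.

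Expansins, which loosen walls, had 10 of 19 higher and 1 at least 1 log unit lower, with medians of 0.0037 and -0.24. EXLA1 read 5.41 and 7.74 against 4.22 and 7.61. Xyloglucan endotransglucosylases, which cut and rejoin xyloglucan, had 6 of 10 higher, 1 by at least 1 log unit, with medians of 0.052 and 0.013. XTH18 read 5.57 and 6.11 against 2.91 and 6.52. TBL proteins, which acetylate wall polymers, had 9 of 24 higher, 1 at least 1 log unit lower, and medians of -0.15 and -0.0088.

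Plastid-encoded genes were the largest list and one of those most often higher on mutant replicate 2, with 55 of 69 higher, a median of 0.33, 3 at least 1 log unit higher and 2 lower. Over 4 arrays 35 of 69 were higher and the median was 0.0084. The psbK and psbI genes encode small subunits of photosystem II, and psbI read 2.47 and 5.11 for wild type and 3.73 and 6.25 for the mutant. It was higher in the mutant by 1.13 on replicate 2 and by 1.19 over 4 arrays, while psbK, at 1.11 on replicate 2, read 3.81 and 5.30 against 3.25 and 6.41. ndhA, a subunit of the NDH complex, read 2.01 and 4.37 against 3.62 and 5.44. The opposite was seen in rpoB, a subunit of the plastid RNA polymerase, which read 3.85 and 2.94 against 3.30 and 1.46 and was lower in both replicates. Their median level was 4.92 on wild-type replicate 2, and the brightest of the 4 level classes had a median difference of 0.13.

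The 21 nuclear photosystem, antenna and electron transport genes differed little on replicate 2, where all 21 were within 0.5 log units and the median was -0.0066. Over 4 arrays the median was -0.83, with 3 of 21 higher and 0 at an unadjusted p under 0.05. PSAE-1, a photosystem I subunit, read 9.04 and 9.27 for wild type and 4.15 and 9.16 for the mutant, so mutant replicate 1 alone was low. Chlorophyll and heme synthesis had 6 of 11 higher and medians of 0.048 and -0.42. HEMA2, a glutamyl-tRNA reductase, read 4.06 and 3.99 against 3.17 and 4.86.

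Factors for RNA editing and processing in plastids and mitochondria had 9 of 21 higher, 1 at least 1 log unit higher (OTP86) and 2 lower, with medians of -0.17 and -0.025. The replicate 2 median was -0.0020 under quantile normalization, 0 with values raised to the 20th percentile, and above 0 without the dim probe sets (0.11) and in the 8 bright members (0.12), so its direction turned with the setting. TCA cycle and glycolysis enzymes had 18 of 24 higher, 1 at least 1 log unit lower, and medians of 0.14 and -0.26. PPDK, pyruvate orthophosphate dikinase, read 1.69 and 3.27 for wild type and 5.56 and 4.15 for the mutant. Both mutant arrays exceeded both wild-type arrays, and the difference was 2.38 over 4 arrays and 0.88 on replicate 2. In the list of alternative mitochondrial dehydrogenases and cytochrome c, 7 of 15 were higher and the medians were -0.029 and 0.33. ETFQO, which passes electrons from amino acid breakdown to ubiquinone, read 3.73 and 2.41 against 4.12 and 3.52, higher by 1.11 on replicate 2.

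Plant defensins, LCR peptides and thionins had a median of -0.30 on replicate 2 and -0.56 over 4 arrays. On replicate 2 it was -0.18 for the 8 bright members and -0.017 with values raised to the 20th percentile. Of 17 genes, 4 were higher and 3 at least 1 log unit lower, among them PDF1.2 and PDF1.2b. THI2.1, a thionin induced by jasmonate, read 3.66 and 3.74 for wild type and 3.15 and 2.74 for the mutant, so both mutant arrays were below both wild-type ones. In 5 of the 17 genes the mutant arrays were below both wild-type arrays, and in 2 above, beside 7.53% and 10.5% of all genes. This was not particular to the list. Of 24 TBL proteins 5 were below and 3 above, and of 31 ubiquitin-conjugating enzymes and ligases 3 were below and 7 above. LCR69 read 6.11 and 7.37 against 2.91 and 7.31, low on mutant replicate 1 alone. RALF-like, CLE and other signal peptides had 9 of 17 higher and medians of 0.0057 and -0.12.

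Among regulators, MADS-box transcription factors had 14 of 42 higher, 2 at least 1 log unit lower and medians of -0.16 and -0.19. Most were dim, with a median level of 1.86 on wild-type replicate 2, and the dimmest of the 4 level classes had a median difference of -0.15. The auxin response and synthesis list had 8 of 22 higher and medians of -0.15 and 0.15, with LBD29 as the 1 member at least 1 log unit lower. It was dim too, with a median level of 1.79 on wild-type replicate 2. Its replicate 2 median was 0 with values raised to the 20th percentile and -0.32 in the 6 bright members. bZIP factors had 15 of 23 higher and medians of 0.12 and -0.050. bZIP44 read 2.74 and 2.90 against 3.30 and 1.89, opposed between replicates. bHLH factors had 11 of 20 higher and medians of 0.016 and 0.16. MYC3, a jasmonate-response factor, read 1.502 and 3.53 against 3.45 and 2.44, also opposed.

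Calmodulin-like and IQD proteins had 14 of 24 higher, 1 at least 1 log unit higher and 1 lower, and medians of 0.085 and -0.011. IQD22, a calmodulin-binding IQ-domain protein, read 3.05 and 3.65 for wild type and 3.26 and 4.87 for the mutant, higher within each replicate. IQD16 of the same family read 1.52 and 2.98 against 1.09 and 1.96, lower within each replicate.

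Nuclear functions differed by list. LSM, splicing and mRNA export proteins had a median of 0.39 on replicate 2, with 21 of 25 higher and 1 at least 1 log unit lower. Over 4 arrays the median was 0.025. On replicate 2 it was 0.27 under quantile normalization and 0.16 with 16 added on the linear scale. Of the 19 bright members 17 were higher by any amount, beside 60.3% of all bright genes. MAC3A, a U-box protein of the PRP19-type splicing complex, read 1.42 and 3.21 for wild type and 2.16 and 3.81 for the mutant. U2AF35B, a splicing factor of the 3' splice site, read 2.61 and 2.53 against 2.11 and 3.26. Histones and chromatin remodelling factors had 11 of 25 higher, 2 at least 1 log unit lower and medians of -0.042 and 0.13. HTR12, the centromeric histone H3, read 1.82 and 2.34 against 2.66 and 3.07, without overlap. DNA repair, replication and meiosis genes had 18 of 35 higher and medians of 0.030 and 0.32, with 1 at least 1 log unit higher. ATLIG4, DNA ligase 4 of end joining, read 1.99 and 2.41 against 2.90 and 3.27, also without overlap. RNA polymerase subunits had 6 of 12 higher and medians of -0.083 and -0.33.

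In protein turnover, ubiquitin-conjugating enzymes and ligases had 19 of 31 higher and medians of 0.12 and 0.056. UBC20 read 2.25 and 4.01 against 5.01 and 4.53, both mutant arrays above both wild-type ones, by 0.52 on replicate 2. Ubiquitin-specific proteases had 9 of 12 higher and medians of 0.13 and 0.40, and SKP1-like and F-box proteins 4 of 11 and medians of -0.022 and -0.10. Serine carboxypeptidase-like proteins had 11 of 29 higher, 2 at least 1 log unit lower, and medians of -0.14 and -0.22. Other proteases had 15 of 28 higher and medians of 0.010 and -0.20. SBT1.3, a subtilase, read 3.29 and 4.96 against 3.01 and 4.22, lower within each replicate.

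The other lists named for stress and detoxification had replicate 2 medians between -0.064 and 0.20. LEA proteins, dehydrins and cold-regulated genes had 9 of 12 higher, none by 1 log unit, and medians of 0.20 and -0.43. COR15A, a cold-induced protein that protects plastid membranes, read 4.55 and 6.61 against 4.32 and 7.22. Thioredoxins, glutaredoxins and antioxidant enzymes had 16 of 24 higher, none 1 log unit apart, and medians of 0.075 and -0.10. TAPX, the thylakoid ascorbate peroxidase, read 3.90 and 4.42 against 2.70 and 5.35. Aldehyde dehydrogenases had 5 of 8 higher and medians of 0.091 and -0.13, and glutathione transferases 8 of 14 and medians of 0.014 and -0.054.

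UDP-glycosyltransferases had 18 of 50 higher, 1 at least 1 log unit lower and medians of -0.064 and 0.15. UGT72E1, which glucosylates monolignol aldehydes, read 1.54 and 3.48 against 1.78 and 2.44. Cytochromes P450 had 10 of 24 higher, 2 at least 1 log unit lower and medians of -0.061 and 0.14. Beta-glucosidases had 11 of 22 higher and medians of -0.061 and 0.021, with ATA27 the 1 member at least 1 log unit apart. Their replicate 2 median turned to 0.33 without the dim probe sets and was 0.30 in the 10 bright members. BGLU16 read 2.46 and 3.48 against 2.11 and 4.06. Flavonoid, lignin and related genes had 7 of 16 higher and medians of -0.031 and -0.075. DFR, dihydroflavonol reductase of anthocyanin synthesis, read 1.99 and 2.43 against 3.10 and 2.95, both mutant arrays above both wild-type ones. Sugar transporters had 9 of 19 higher and medians of -0.057 and 0.22. SWEET10 read 2.25 and 3.50 against 2.70 and 2.45, opposed between replicates. Cation exchangers, glutamate receptor channels and proton pumps had 9 of 18 higher, none 1 log unit apart, and medians of 0.0070 and 0.075.

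**Figure D5:**
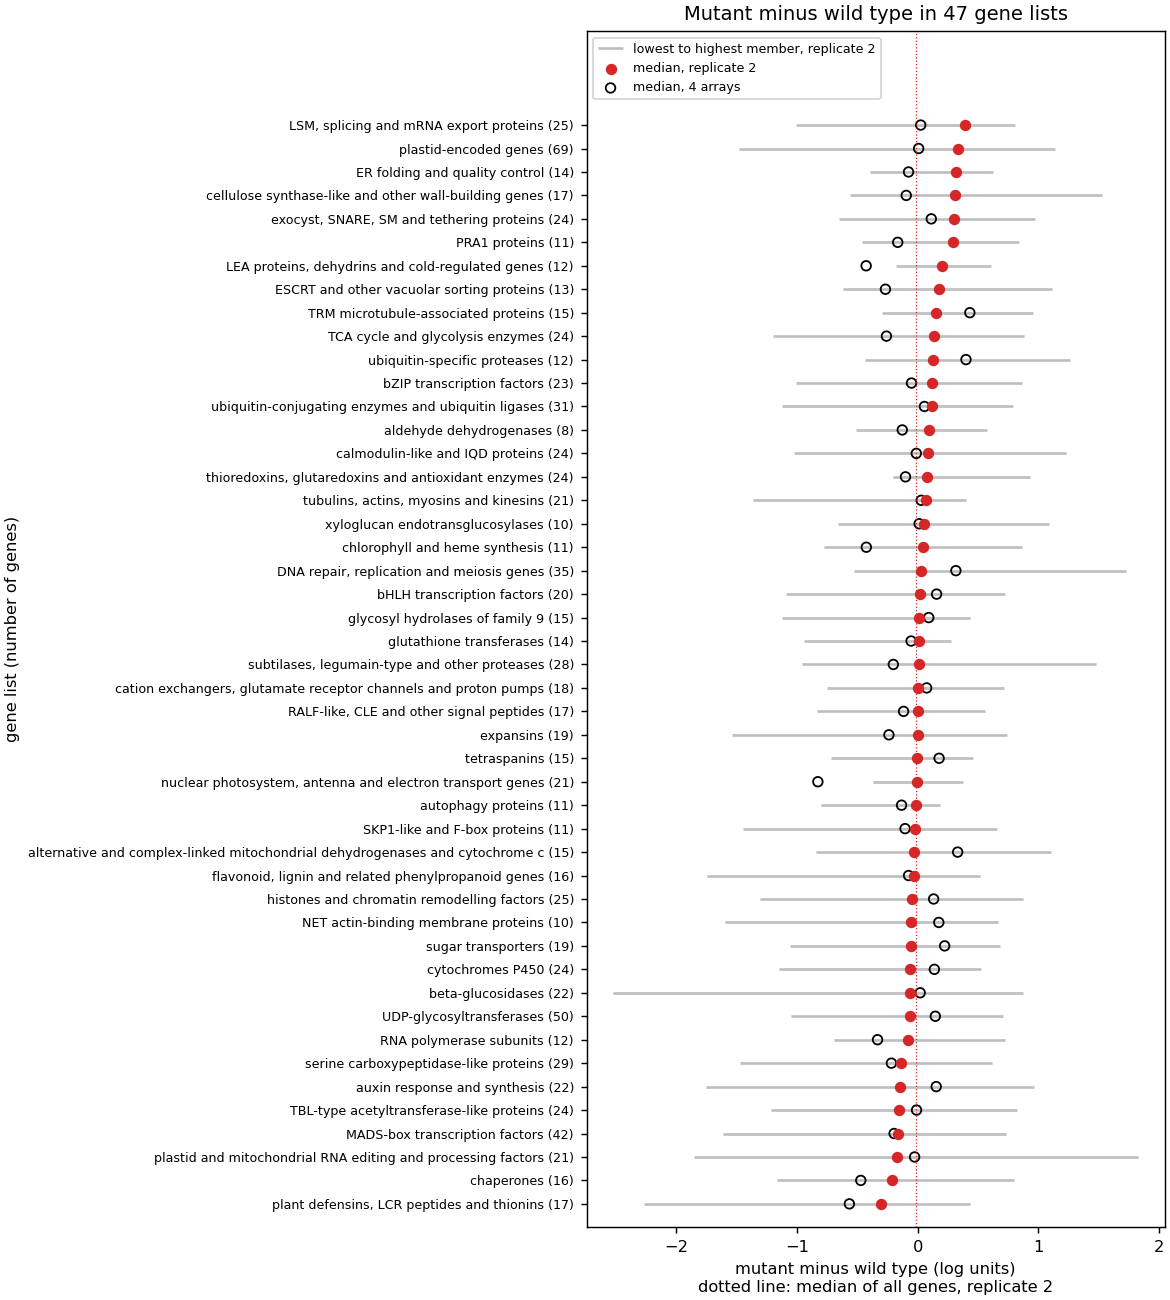
Mutant minus wild type (horizontal axis, log units) in 47 gene lists (vertical axis, number of genes in brackets): red points are list medians on replicate 2, open circles medians over 4 arrays, and grey lines run from the lowest to the highest member on replicate 2. Replicate 2 medians stay between -0.30 and 0.39, while those over 4 arrays reach -0.83 for nuclear photosystem genes, whose median level was 2.65 on mutant replicate 1 and 4.19 on wild-type replicate 1.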

How the data were processed

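The authors deposited 1 score per probe set and array, as log values of an unstated base. How probes were summarised and arrays normalised is not given in the sources used here. Agilent Feature Extraction, without a version, is the tool in the submitters' processing notes, which does not go with biotin-labelled cRNA prepared by an Affymetrix protocol. Values were kept as deposited, and no detection calls or spot intensities were used, so the number of arrays limits the precision.

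Of 22746 probe sets, after 64 controls were left out, 13513 have 1 gene in the platform annotation, 503 several and 8730 none here; 13436 matched the RefSeq table of TAIR10.1, giving 13286 genes, 11751 of them by locus only. Contrasts were fitted in limma 3.58.1 (R 4.3.3) with Benjamini-Hochberg adjustment over all probe sets. The 4-array contrast came from a fit to all 6 arrays (3 residual degrees of freedom), and the replicate 2 contrast from a fit to wild-type replicate 2, mutant replicate 2 and both TaVAPOE arrays (1 residual degree of freedom). Replicate numbers are shared between groups, but no source says that they mark a batch.

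The comparison and the gene lists were chosen with earlier results of these data known, and the list patterns were corrected after gene names and values had been seen, so no list was tested. Genes were named mainly by fixed rules. The first took up to 12 a direction at an unadjusted p under 0.01 (limma) over 4 arrays without overlap of groups, with the higher group mean above the median. The second took 15 a direction by replicate 2 difference. The third took up to 12 a direction at least 1 log unit apart on replicate 2 and over 4 arrays without overlap. For each list, up to 3 a direction at least 0.5 log units apart on replicate 2 were taken. These last 3 rules required the brighter replicate 2 array above the median. The brightest member of each list was taken without such a limit. Markers, neighbouring genes, genes apart on mutant replicate 2 and probe sets without a single gene were named outside these rules. Values raised to the 20th percentile stand in for a background level.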

Additional observations from a re-analysis of the deposited data

How the results depend on the processing

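The 4-array test called 0 probe sets under all 14 other settings, among them the replicate block (smallest adjusted p 0.9998) and each array left out in turn (0 to 0). The labels give no shared batch for a replicate number, and with 2 pairs the data cannot show pairing; the differences between replicates 1 and 2 correlated at 0.58 between wild type and mutant. The replicate 2 test went from 0 calls to 4 with the filter at the 40th percentile, 4 with median centring and 8 with an intensity trend and robust moderation, and gave 0 under the other 4. Of 442 probe sets at least 1 log unit higher on replicate 2, the filter left 293, adding 16 on the linear scale 1 and a threshold of 1.5 log units 64. Of 671 lower, they left 142, 9 and 158, and raising values to the 20th percentile left 285; fewer probe sets or compressed low values give fewer large differences by construction. The number of lists with a median above 0 was 27 on replicate 2, and 20 to 29 under other settings, the 29 out of the 39 lists that kept 8 genes under the filter. Over 4 arrays it was 21, and 19 to 31 with 1 array left out. Of the 47 medians over 4 arrays, 26 changed sign without mutant replicate 1, and of 47 on replicate 2, 11 did under quantile normalization; the cause was not tested. With 1 array a group, leaving out an array was not possible for the replicate 2 values. Values near the dim end have little order, since no background level is given.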
